A study of Schizosaccharomyces pombe with 80 samples.

Results

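The comparison described here set pfs2-11 fission yeast against a pfs2+ wild type at 37 °C, using lists of peaks of histone H3 dimethylated at lysine 9 (H3K9me2) from chromatin immunoprecipitation and sequencing. Samples were chosen by their labels: 2 pfs2-11 samples, their 2 wild-type parents and the 2 inputs paired with them, which are 6 of the 80 samples of the series. The 4 H3K9me2 lists hold 103 of the 7203 peaks that the 75 deposited lists contain. The pfs2-11 lists held 37 and 20 peaks in replicates 1 and 2, and the wild-type lists held 24 and 22.

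Pfs2 is a subunit of the cleavage and polyadenylation (CPA) machinery, which cuts a nascent transcript at its 3′ end, adds the poly(A) tail and lets RNA polymerase II terminate. The pfs2-11 allele is temperature sensitive, so 37 °C, a temperature at which its product fails and polymerase reads past CPA sites, was used for both genotypes. The labels give no other allele or agent for these strains, in contrast to the rest of the H3K9me2 samples, which lacked epe1 and grew at 30 °C. The labels do not say whether the replicates were separate cultures, so the p-values measure only the spread between these samples. The question was whether loss of CPA function alters where H3K9me2 is found and how much of it there is.

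In fission yeast H3K9me2 is written by a single methyltransferase, Clr4, and bound by chromodomain proteins such as Swi6 that silence the underlying DNA. It covers the dg and dh repeats in the arms on either side of each centromere core, the silent mating-type region and the chromosome ends. Smaller patches, called islands, sit over scattered genes, many of them meiotic. Clusters of tRNA genes flank several centromere arms and are known boundary elements that stop the spread of heterochromatin. Transcription of tRNA genes by RNA polymerase III depends on the B box, a short internal element that the factor TFIIIC binds.

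Each peak was listed with its mean read coverage and with an average coverage of its chromosome. The ratio of these values is called the fold here, and no listed peak had a fold below 3. The files give no read totals, and depth shows only in the mean chromosome coverage, which was 2.76 and 3.40 reads per base in the pfs2-11 lists and 9.64 and 2.62 in the wild-type lists. On chromosome III the peaks of every list held more coverage than the listed chromosome average times the chromosome's length, by a factor of 3.45 and 1.34 in pfs2-11 and of 1.66 and 1.05 in the wild type. On chromosome II this factor was 1.15 and 0.362 in pfs2-11 and 0.518 and 0.405 in the wild type, so it passed 1 in pfs2-11 replicate 1 alone. The listed average is therefore no plain mean, and the fold of one list cannot be assumed to share a scale with that of another, so ratios within a list are given beside it. Since no listed peak had a fold below 3, the edges, the lengths and the presence of a peak in blocks and bins may rest on that scale too. No peak of pfs2-11 replicate 2 lay to the right of the centromere flanks on chromosomes I and II, which removes the mating-type region and both right ends from that list. Whether that list is complete is unknown.

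The edges of the centromere arms lay close to tRNA genes, and the sequences of these genes are given first because the differences at centromere II fell on them. Of the 24 arm edges in the pfs2-11 lists, 21 lay within 500 bp of a tRNA gene, as did 22 of 24 in the wild-type lists, while 1.23% of the genome lies that close to one of its 171 annotated tRNA genes. The exceptions were the outer edge of the right arm of centromere I in all 4 lists and the outer edge of the right arm of centromere III in pfs2-11 replicate 1. The sequences below come from the RefSeq genome ASM294v3, read 5′ to 3′ on the strand of the gene, with capitals marking a match to the B box pattern GTTCNANNC. That pattern was found on the coding strand in 156 of the 171 tRNA genes (91.2%), and on either strand in 2.31% of all 73-base windows of the genome. The first 5 genes are part of the tRNA cluster at the outer left edge of centromere II, which holds further tRNA genes on either side of them, the next gene flanks the outer left edge of centromere I and has an identical copy at the outer right edge of centromere III, and the last 3 flank the inner edges of centromere I, the outer right edge of centromere II and the outer left edge of centromere III.
tRNA-Ile, chrII:1600086-1600159, plus strand: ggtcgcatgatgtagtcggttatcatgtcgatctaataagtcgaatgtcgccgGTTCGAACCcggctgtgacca
tRNA-Ala, chrII:1600233-1600306, minus strand: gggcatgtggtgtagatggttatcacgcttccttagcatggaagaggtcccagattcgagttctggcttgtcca
tRNA-Val, chrII:1600967-1601049, minus strand: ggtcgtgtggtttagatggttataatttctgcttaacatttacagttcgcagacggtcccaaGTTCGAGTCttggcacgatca
tRNA-Glu, chrII:1601491-1601562, minus strand: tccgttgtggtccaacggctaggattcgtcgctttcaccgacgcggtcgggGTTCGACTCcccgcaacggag
tRNA-Arg, chrII:1602188-1602260, plus strand: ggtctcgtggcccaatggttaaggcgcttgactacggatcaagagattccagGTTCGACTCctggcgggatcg
tRNA-Phe, chrI:3752334-3752406, minus strand: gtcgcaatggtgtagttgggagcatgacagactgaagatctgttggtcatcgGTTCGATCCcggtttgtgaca
tRNA-Glu, chrI:3765434-3765505, minus strand: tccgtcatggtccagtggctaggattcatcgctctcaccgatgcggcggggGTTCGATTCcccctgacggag
tRNA-Leu, chrII:1644083-1644183, minus strand: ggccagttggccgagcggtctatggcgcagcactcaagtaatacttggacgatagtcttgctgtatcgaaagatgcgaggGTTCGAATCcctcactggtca
tRNA-Leu, chrIII:1069166-1069244, plus strand: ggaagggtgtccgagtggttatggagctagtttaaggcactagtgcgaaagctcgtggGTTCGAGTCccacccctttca

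All 6 centromere arms had a higher fold in both pfs2-11 lists than in either wild-type list. Their mean fold was 102 and 44.0 in pfs2-11 replicates 1 and 2, against 38.9 and 30.4 in the paired wild types, which is 2.61 and 1.45 times as high. The group means were 72.8 ± 40.8 in pfs2-11 and 34.7 ± 6.01 in the wild type (SD, n = 2 each). The pfs2-11 replicates thus differed from each other more than pfs2-11 replicate 2 differed from either wild type. On the log2 scale the difference was 0.959, with p = 0.333 in a two-sided exact permutation test, the smallest value that 2 against 2 samples allow. A mean over all peaks in the centromere windows, which for wild-type replicate 2 includes a pair of short peaks between the arms of centromere III, gave a log2 difference of 1.14 (p = 0.333, exact permutation test) and a ratio of 44.0 to 23.6 in replicate 2.

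The arms kept a similar order of fold among themselves in all 4 lists. The left arm of centromere III was the highest in each, with a fold of 120 and 49.4 in pfs2-11 and of 48.7 and 35.5 in the wild type. In replicate 2 of pfs2-11 this arm exceeded wild-type replicate 1 by little. The left arm of centromere I was the lowest in pfs2-11, level with the right arm in replicate 2, with a fold of 89.4 and 39.5, against 34.8 and 28.3 in the wild type, where it was the lowest in replicate 1 and the second lowest in replicate 2. The highest arm was 1.34 and 1.25 times the lowest in pfs2-11, and 1.40 and 1.28 times in the wild type.

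The ratio of pfs2-11 to wild type was largest at centromere II in both pairs. Its left arm had a fold of 104 and 48.5 in pfs2-11 and of 37.6 and 30.2 in the wild type, ratios of 2.77 and 1.60 in replicates 1 and 2. Its right arm had a fold of 102 and 44.3 in pfs2-11 and of 35.4 and 29.2 in the wild type, ratios of 2.89 and 1.52. At the other 4 arms the ratios ran between 2.43 and 2.65 in replicate 1 and between 1.35 and 1.43 in replicate 2. Reads with several matches were placed at 1 random location, and between 92.1% and 95.5% of the 50-base stretches in the arms recur elsewhere in the genome, so the values of single arms are partly shared between them.

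Of the 10 blocks with a peak in all 4 lists, 6 (60.0%) had a higher fold in both pfs2-11 lists than in both wild-type lists, and these were the 6 arms. None (0%) had a lower one. The other 4 blocks, which are the left ends of the 3 chromosomes and gsf2, overlapped between the groups. The left end of I had a fold of 33.8 and 22.9 in pfs2-11 and of 26.0 and 19.6 in the wild type. The left end of II had a fold of 16.1 and 6.88 in pfs2-11 and of 9.59 and 7.50 in the wild type. Within replicate 2 the arms were thus higher in pfs2-11 while the left end of II was lower.

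**Figure D1:**
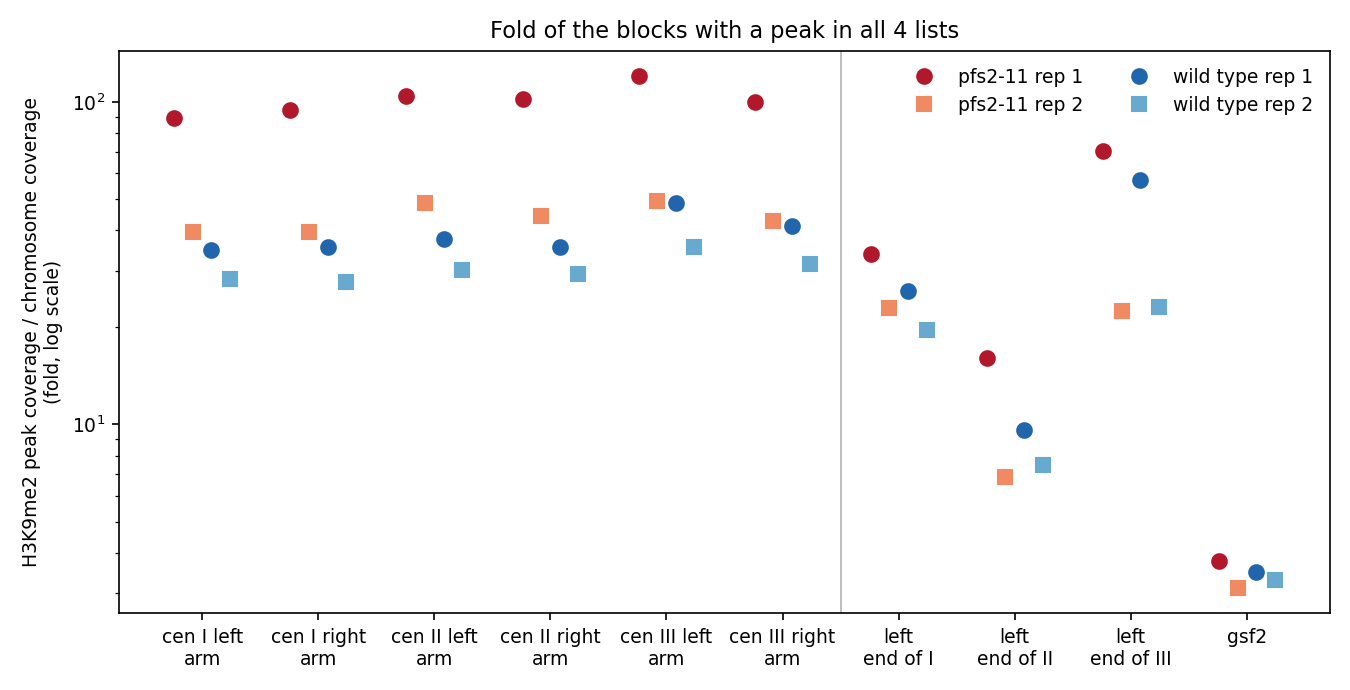
Fold (peak coverage over chromosome coverage, log scale) of the 10 blocks with a peak in all 4 lists, with 1 point per list. At each of the 6 centromere arms both pfs2-11 points lie above both wild-type points, whereas at the 3 left ends and gsf2 the genotypes overlap.

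Because every peak of a list shares that list's scale, coverage at the arms was also divided by coverage at the chromosome ends of the same list. Against the left end of I, which begins at tlh1, a subtelomeric RecQ-type helicase gene, the mean coverage of the arms was 3.17 and 1.96 times as high in pfs2-11 and 1.55 and 1.59 times as high in the wild type. Against the left end of II it was 6.55 and 6.62 times as high in pfs2-11 and 4.23 and 4.19 times in the wild type. The 2 values of each genotype differed by little at this end, and the pfs2-11 ratio exceeded that of its paired wild type by 1.55 and 1.58 times. Against the left end of III, where both inputs had a peak over nearly the whole block, it was 1.34 and 1.86 times in pfs2-11 and 0.645 and 1.25 times in the wild type. The replicate 2 input also had peaks over 993 bp of the left end of I. In the arms of centromeres II and III it had peaks over 282 to 1885 bp of each. The replicate 1 input had a peak over 145 bp of the left arm of centromere II. For each end both pfs2-11 ratios were above both wild-type ratios (p = 0.333, exact permutation test, n = 2 each).

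**Figure D2:**
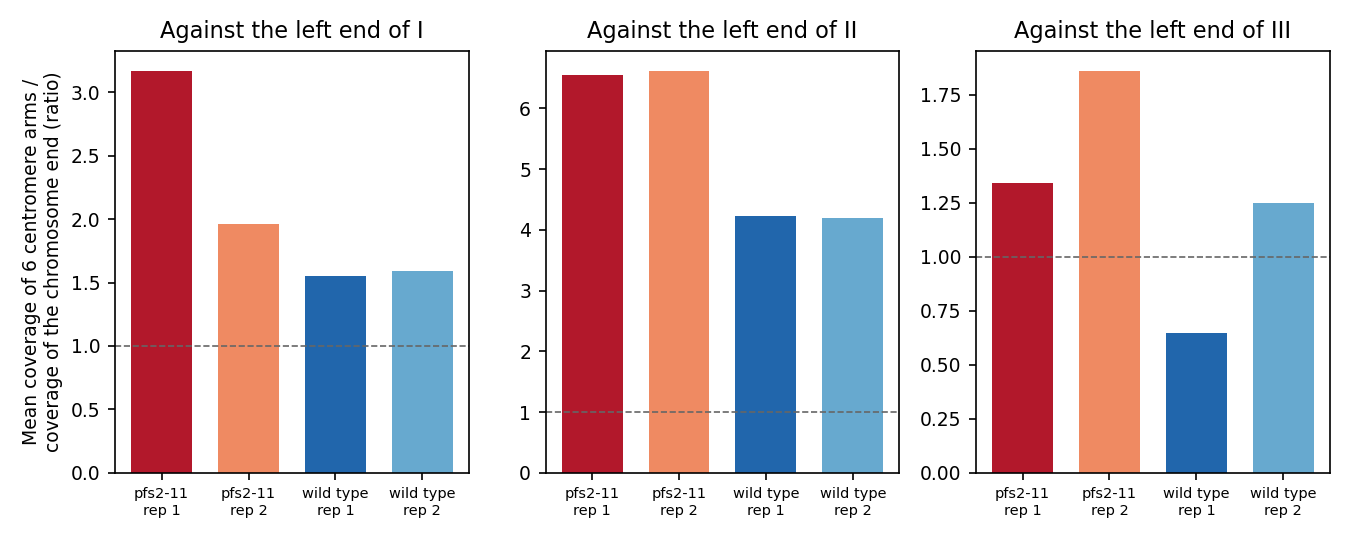
Mean coverage of the 6 centromere arms divided by the coverage of the left end of chromosomes I, II and III in the same list, with 1 bar per list and a dashed line at a ratio of 1. The pfs2-11 bars exceed the wild-type bars in each panel, and the pfs2-11 replicates lie closest together against the left end of II, at 6.55 and 6.62.

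Over all subtelomeric peaks of chromosomes I and II, taken as 100 kb at each end, the coverage of the centromere peaks was 3.84 and 2.63 times that of the subtelomeres in pfs2-11 and 1.93 and 1.94 times in the wild type. The log2 difference was 0.717 (p = 0.333, exact permutation test). The centromeres held 73.6% and 78.3% of all peak coverage in pfs2-11 and 57.0% and 63.2% in the wild type, a difference of 15.8 percentage points (p = 0.333, exact permutation test). Since pfs2-11 replicate 2 lists nothing at the right ends, the share was also taken without the positions right of the centromeres of I and II. It was then 79.5% and 78.3% in pfs2-11 and 65.0% and 72.8% in the wild type, a difference of 10 points.

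The order of coverage within each list differed at the left end of III. This end had rank 7, below all 6 arms, in both pfs2-11 lists and in wild-type replicate 2, and rank 1 of 19 merged blocks, above the arms, in wild-type replicate 1. Its fold was 70.3 and 22.4 in pfs2-11 and 57.1 and 23.1 in the wild type, so it separated the replicates and not the genotypes. The paired inputs, 1 for each replicate, had a peak over the same 25 kb with a fold of 21.1 in replicate 1 and 9.09 in replicate 2. Divided by its input, the fold was 3.33 and 2.46 in pfs2-11 and 2.70 and 2.55 in the wild type. Of the 50-base stretches in this block 99.5% recur elsewhere in the genome.

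The total length of the centromere peaks was greater in both pfs2-11 lists than in both wild-type lists, but this did not hold for each arm. These peaks covered 124 and 120 kb in pfs2-11 and 117 and 119 kb in the wild type, a mean difference of 3.79 kb that was 6.71 kb in replicate 1 and 0.872 kb in replicate 2 (p = 0.333, exact permutation test). The arms of centromere II and the left arm of centromere III were longer in both pfs2-11 lists than in both wild-type lists. Both arms of centromere I and the right arm of centromere III overlapped between the genotypes, and in replicate 2 these 3 arms were shorter in pfs2-11 than in its paired wild type, at 13202, 14009 and 36285 bp against 13366, 14331 and 36329 bp. Of the 12 arm edges, 5 (41.7%) lay further out in both pfs2-11 lists than in both wild-type lists, and none (0%) lay further in. These were the outer left edge and both inner edges of centromere II and both inner edges of centromere III. Only at the outer left edge of centromere II did the shifts exceed 1 kb, the width over which the authors smoothed the coverage. Peaks are listed by their fold, so edges and lengths are not a result separate from the higher fold of the arms. Whether the edges differ apart from the fold was not tested.

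The largest of these differences was at the outer left edge of centromere II. The arm began at position 1600064 in pfs2-11 replicate 1 and 1600992 in replicate 2, against 1602199 and 1602168 in the wild types, which agree within 31 bp. Both wild-type edges lay at the tRNA-Arg gene printed above, within 20 bp of it or inside it. The edge of pfs2-11 replicate 2 lay inside the tRNA-Val gene, 1176 bp further out, and that of replicate 1 lay 22 bp outside the tRNA-Ile gene, 2135 bp further out. The added stretch thus held tRNA-Glu and part of tRNA-Val in replicate 2, and tRNA-Ile, tRNA-Ala, tRNA-Val and tRNA-Glu in replicate 1.

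**Figure D3:**
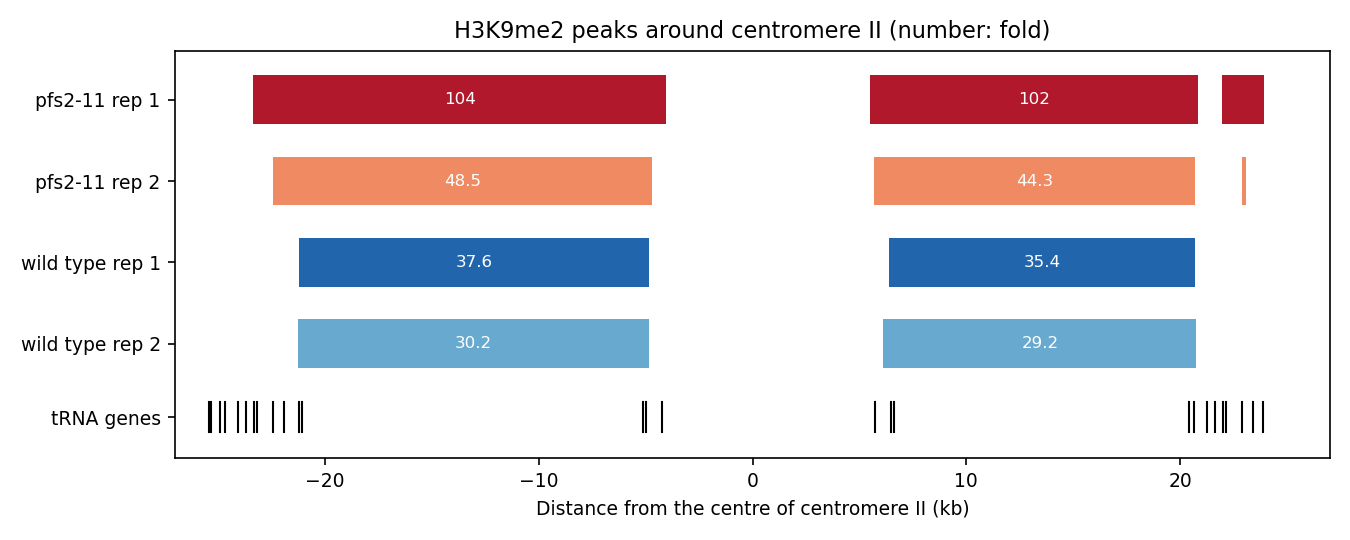
H3K9me2 peaks around centromere II in the 4 lists, drawn as bars by distance from the centre (kb), with the fold written on each arm and tRNA genes as ticks. Both pfs2-11 lists reach further over the left tRNA cluster, and both hold a separate peak over tRNA genes on the right that is in neither wild-type list.

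Of the 4 lists, only those of pfs2-11 held a separate peak on the right of centromere II. It ran over chrII:1645382-1647323 (1942 bp, fold 5.4) in replicate 1 and over chrII:1646320-1646492 (173 bp, fold 3.06) in replicate 2, and no wild-type list held a peak there. The outer edge of the right arm itself lay at 1644234 and 1644134 in pfs2-11 and at 1644135 and 1644173 in the wild type, beside the tRNA-Leu gene printed above. In replicate 1 the flank peak covered tRNA-Ile, tRNA-Ala, tRNA-Val and tRNA-Glu genes and part of tRNA-Arg, and all 5 genes have the same sequence as the genes of those names printed above. In replicate 2 it overlapped part of tRNA-Val (chrII:1646305-1646387) and none of the other 4. The nearest protein-coding gene is yox1, a repressor of cell-cycle transcription, which begins at 1648232. A peak at the right flank was also listed in cells without epe1. It was in 5 of 15 isolates with an empty vector and in 0 of 13 with tfs1DN, a dominant-negative tfs1 allele. Of the tfs1DN isolates without ago1, 0 of 12 had one, and of those with seb1-1, 15 of 15 had one. Of the parents that lacked epe1 alone, 0 of 3 had one, and the 1 parent with seb1-1 had one.

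The additions on the left and the right of centromere II share most of their sequence. Of the 50-base stretches of the right flank peak, 80.8% recur in the stretch added on the left in pfs2-11 replicate 1, and 74.4% of the left stretch recurs on the right. The 173 bp listed in replicate 2 recur on the left in full (100%). Only 15.4% of the stretches of the right flank peak and 14.2% of those of the left addition occur within the arms as both genotypes share them, against 90.0% to 95.5% for the arms among themselves. Of the left addition of replicate 2, 0% does. Of the left addition of replicate 1, 31.1% recurs in the stretches added at the inner edges of centromere II. With random placement the signal of these clusters can be divided between both sides, and the files do not show which side gave it.

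At the inner edges of centromere II the left arm ended at 1619392 and 1618698 in pfs2-11 and at 1618570 and 1618564 in the wild type, where the edge lies beyond tRNA-Ala. In replicate 1 of pfs2-11 the arm included the next gene, tRNA-Val. The right arm began at 1628930 and 1629099 in pfs2-11, before tRNA-Val, and at 1629786 and 1629543 in the wild type, between tRNA-Val and tRNA-Ala. The shifts within pairs were 822 and 134 bp for the left arm and 856 and 444 bp for the right arm. All were less than the 1 kb smoothing window. The added inner stretches of replicate 1 recur elsewhere in the genome in full (100%), and 60.9% of the left one recurs in the right one.

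At the inner edges of centromere III the differences were smaller. The left arm ended at 1093005 and 1092778 in pfs2-11 and at 1092686 and 1092702 in the wild type, between tRNA-Arg and tRNA-Val. The right arm began at 1105952 and 1106272 in pfs2-11 and at 1106363 and 1106325 in the wild type, within or beside tRNA-Arg. These shifts were 319 and 411 bp in replicate 1 and 76 and 53 bp in replicate 2, all less than the 1 kb over which the authors smoothed the coverage. The pair of short peaks between the arms in wild-type replicate 2 (fold 3.07) lay beyond the right-arm edge and was not joined to it.

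The remaining 7 arm edges overlapped between the genotypes. The outer left edge of centromere I lay at 3752294 and 3752031 in pfs2-11 and at 3752289 and 3751982 in the wild type, outside the tRNA-Phe gene. Its outer right edge, which has no tRNA gene nearby, lay at 3790732 and 3791024 in pfs2-11 and at 3790940 and 3791201 in the wild type, so that each pfs2-11 edge lay further in than that of its pair, with outward shifts of -208 and -177 bp. The outer right edge of centromere III lay 1493 bp further out in pfs2-11 replicate 1, at 1143726, inside ppc1, which encodes a phosphopantothenate-cysteine ligase of coenzyme A synthesis. In pfs2-11 replicate 2 it lay at 1142556, between the wild-type edges at 1142233 and 1142653, and the second of these, of replicate 2, also lies inside ppc1.

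**Figure D4:**
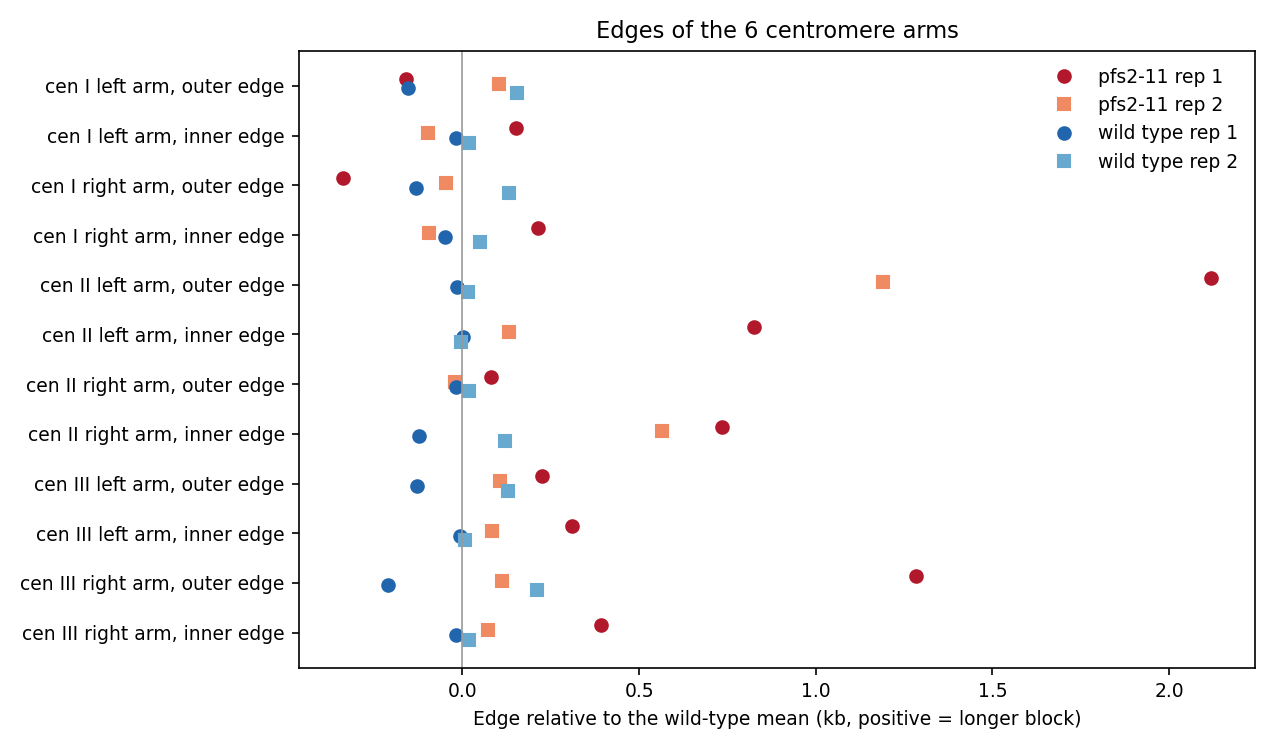
Position of each edge of the 6 arms relative to the mean of the wild-type lists, in kb, with positive values for a longer block and 1 point per list. The outer left edge of centromere II stands furthest from the wild type, by 2135 and 1176 bp in the pairs, and both pfs2-11 points lie beyond both wild-type points at 5 of the 12 edges.

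Outside the arms the 4 lists held short peaks over named genes, and joining overlapping blocks of all 4 lists gave 31 blocks in all. Some of the 31 lie right of the centromere flanks of I and II, where pfs2-11 replicate 2 lists nothing. The length under peaks was greater in both pfs2-11 lists than in both wild-type lists in 8 blocks (25.8%) and smaller in none (0%). Of these 8, 3 were the arms of centromere II and the left arm of centromere III. The other 5 were the right flank of centromere II and the blocks at prm1 and lys1, mae2, SPAC977.14c and SPBPB21E7.09.

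The block at prm1 and lys1 lay left of centromere I and was found in both pfs2-11 lists and in neither wild-type list. It covered 1002 bp with a fold of 3.14 in replicate 1 and 820 bp with a fold of 3.13 in replicate 2, within chrI:3741202-3742484. The genes overlap on opposite strands, and prm1 encodes a membrane protein of conjugation while lys1 encodes an aminoadipate-semialdehyde dehydrogenase of lysine synthesis. None of its 50-base stretches (0%) recurs elsewhere in the genome, and neither input had a peak there. These folds are just above the lowest values that the lists hold. Some of the 82 known heterochromatin sites listed by the study lie right of the centromere flanks of I and II, where pfs2-11 replicate 2 lists nothing. The block at prm1 and lys1 was the only 1 of the 82 (1.22%) with a peak in both pfs2-11 lists and neither wild-type list. None (0%) had the reverse. In the lists of epe1-deleted cells at 30 °C this place had a peak in 9 of 15 isolates with an empty vector. With tfs1DN it had one in 8 of 13 isolates, in 0 of 12 without ago1 and in 15 of 15 with seb1-1. Of the parents that lacked epe1 alone, 2 of 3 had one.

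The gene mae2, which encodes a malate dehydrogenase (the malic enzyme), lies at chrIII:275261-277262. Peaks covered 969 and 874 bp of it in pfs2-11, against 100 bp and no peak in the wild types. The fold was 3.46 and 3.26 in pfs2-11 and 3.03 in wild-type replicate 1. Of its 50-base stretches 3.37% recur elsewhere. In cells without epe1 at 30 °C, 15 of 15 vector isolates, 0 of 13 tfs1DN isolates and 1 of 3 parents that lacked epe1 alone had a peak there. Of the tfs1DN isolates without ago1, 0 of 12 had one, and of those with seb1-1, 15 of 15 had one.

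A pair of metabolic genes beyond the main subtelomeric blocks also had longer peaks in pfs2-11. At SPBPB21E7.09, an L-asparaginase gene at chrII:76296-77625, peaks covered 1688 and 1538 bp in pfs2-11 and 815 bp and none in the wild types. Its fold was 18.8 and 9.05 in pfs2-11 and 3.7 in wild-type replicate 1. In pfs2-11 its coverage was 1.16 and 1.32 times that of the left end of II in the same list, while in wild-type replicate 1 it was 0.386 times. It had rank 10 and rank 9 by coverage in the pfs2-11 lists, above the left end of II in both, and rank 17 in wild-type replicate 1, below it. Of the 50-base stretches of this block 45.6% recur elsewhere.

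At SPAC977.14c, a gene of the aldo-keto reductase family at chrI:59614-60842, peaks covered 1301 and 1036 bp in pfs2-11 and 865 bp and none in the wild types. The fold was 7.58 and 5.25 in pfs2-11 and 4.0 in wild-type replicate 1. Relative to the left end of I of the same list its coverage was 0.224 and 0.229 in pfs2-11 and 0.154 in wild-type replicate 1. Relative to the mean of the arms it was 7.07% and 11.7% in pfs2-11 and 9.97% in wild-type replicate 1, so the genotypes overlapped. For SPBPB21E7.09 these values were 17.7% and 19.9% in pfs2-11 and 9.12% in wild-type replicate 1. Both this gene and SPBPB21E7.09 had a peak in 15 of 15 vector isolates, 13 of 13 tfs1DN isolates and 2 of 3 parents that lacked epe1 alone. Of the tfs1DN isolates, 12 of 12 without ago1 and 14 of 15 with seb1-1 had a peak at each. Wild-type replicate 2, which listed neither, had the lowest mean chromosome coverage of the 4 lists, at 2.62. That of pfs2-11 replicate 1, which listed both, was close to it at 2.76. Whether depth plays a part was not tested.

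**Figure D5:**
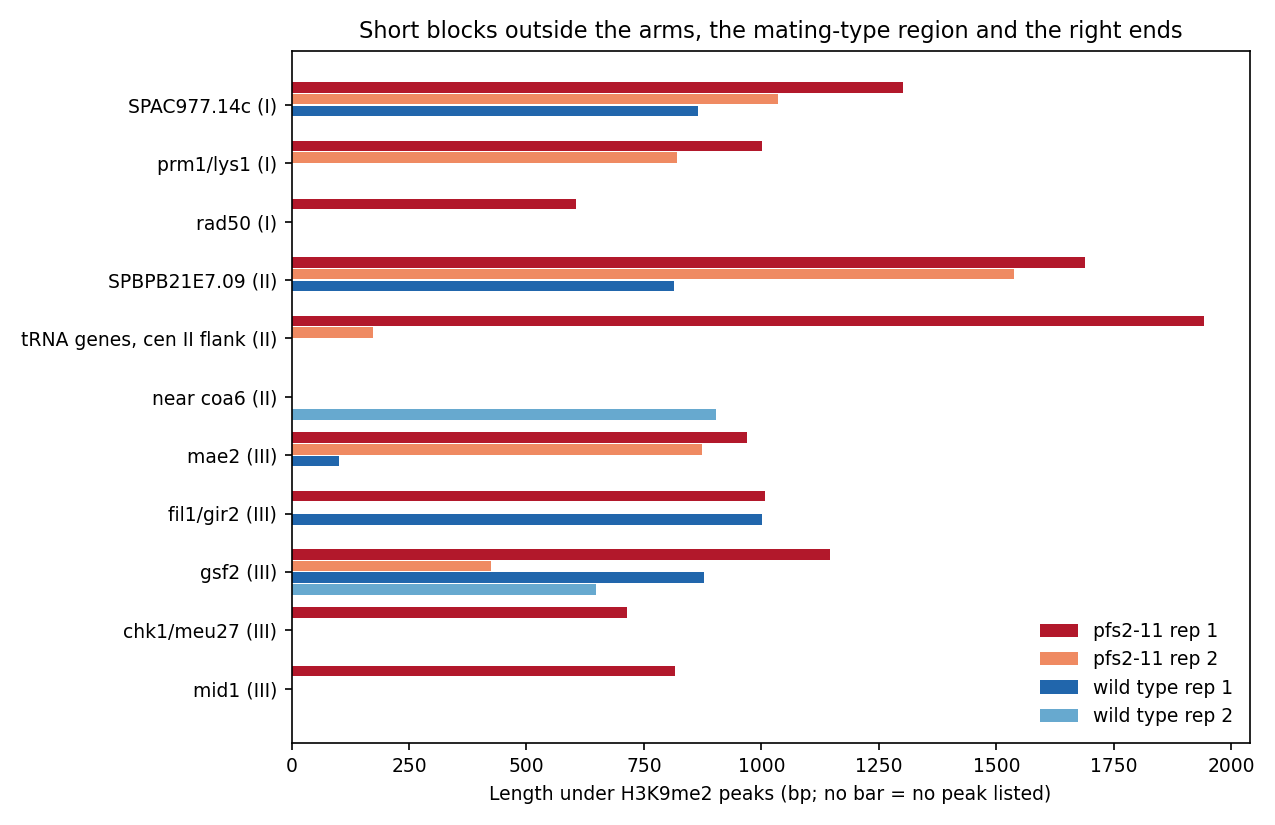
Length under H3K9me2 peaks (bp) of the short blocks in the centromere flanks, beyond the left ends of I and II and in euchromatin, with 1 bar per list and no bar where no peak was listed. The 5 blocks longer in both pfs2-11 lists are SPAC977.14c, prm1 and lys1, SPBPB21E7.09, the tRNA genes right of centromere II and mae2.

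Other short peaks did not separate the genotypes. At gsf2, a flocculin gene, peaks covered 1146 and 425 bp in pfs2-11 and 878 and 648 bp in the wild type, and 95.4% of the 50-base stretches of the block recur within the gene itself. Between fil1, a GATA-type transcription factor gene, and gir2 the replicate 1 lists held a peak of 1008 bp in pfs2-11 and 1001 bp in the wild type, and the replicate 2 lists held none. Near coa6 on chromosome II only wild-type replicate 2 had a peak, of 904 bp.

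Close to the centromeres 3 further genes or gene pairs had, among the 4 lists, a peak in that of pfs2-11 replicate 1 alone. These were rad50, a DNA repair gene right of centromere I (605 bp, fold 3.24), the overlapping genes chk1, a checkpoint kinase, and meu27 left of centromere III (714 bp, fold 3.30), and mid1, which positions the division ring, right of centromere III (816 bp, fold 3.30). In cells without epe1, rad50, chk1 with meu27, and mid1 had a peak in 15, 8 and 1 of 15 vector isolates. With tfs1DN they had one in 3, 0 and 0 of 13 isolates. Of the tfs1DN isolates without ago1, 5, 0 and 0 of 12 had one. Of those with seb1-1, 15, 0 and 9 of 15 had one. Of the parents that lacked epe1 alone, 2, 1 and 0 of 3 had one. Within 20 kb of a centromere window, pfs2-11 replicate 1 held 7 peaks and replicate 2 held 2, against none in the wild-type lists. Counted with the other peaks outside constitutive heterochromatin, there were 10 and 4 euchromatic peaks in pfs2-11 and 3 and 2 in the wild type, a mean difference of 4.5 (p = 0.333, exact permutation test). With a fold of at least 4.5 the counts were 2 and 0 in pfs2-11 and 1 and 0 in the wild type (p = 1.00, exact permutation test). Without the positions right of the centromeres of I and II the groups overlapped. The counts were then 7 and 3 in pfs2-11 and 3 and 1 in the wild type (p = 0.667, exact permutation test).

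In 1 kb bins over the genome, 6 of 12573 bins (0.0477%) had a peak in both pfs2-11 lists and neither wild-type list, and none (0%) had the reverse. The 12573 include bins right of the centromere flanks of I and II, where pfs2-11 replicate 2 lists nothing. Without positions right of the centromeres of I and II, 5 of the 6 remained. Of these 6, 2 lay at prm1 and lys1, 2 at the outer left edge of centromere II, 1 at the right flank of centromere II and 1 at the edge of mae2. All 4 lists shared 201 bins, out of 298 and 214 bins with a peak in pfs2-11 and 266 and 268 in the wild type. The curated sites with a peak numbered 5 and 3 of 82 in pfs2-11 and 2 and 2 in the wild type (difference 2.00, p = 0.333, exact permutation test). Without positions right of the centromeres of I and II they numbered 3 and 3 in pfs2-11 and 2 and 1 in the wild type. With a fold of at least 4.5 no list had a peak at any of them.

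In the mating-type region the pfs2-11 replicates went apart. Peaks covered 11.8 kb in pfs2-11 replicate 1 and nothing in replicate 2, whose list ends before this region, against 5.09 and 7.61 kb in the wild types (mean difference -0.435 kb, p = 1.00, exact permutation test). All lists with peaks there had them at mat1-Mi and mat1-Mc and at mat3-Mi and mat3-Mc, the M-type mating genes at the expressed and the silent cassette. Of the 50-base stretches of the mat1 block 90.1% recur elsewhere in the genome, as do 65.0% of those of the mat3 block, so reads of the cassettes may have been divided between them. Replicate 1 of pfs2-11 also had peaks between the cassettes, over SPBC23G7.10c (a flavin oxidoreductase), rpt6 (a proteasome subunit), SPBC23G7.13c (a urea transporter), SPBC23G7.14 and rpp202 (a ribosomal protein). The fold of the blocks between the cassettes, none of whose stretches (0%) recur, was 3.11 to 4.1, and neither wild-type list had a peak at these 5 genes. At the mat1 block the fold was 4.88 in pfs2-11 replicate 1 and 4.13 and 4.82 in the wild types.

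The inner edges of the long subtelomeric blocks overlapped between the genotypes, although each lay further out in pfs2-11 than in its pair. At the left end of I they reached 36015 and 35786 in pfs2-11 and 35815 and 35582 in the wild type, and at the left end of II 16262 and 16167 in pfs2-11 and 16194 and 16024 in the wild type. The shifts within pairs were 200 and 204 bp at the left end of I, 68 and 143 bp at that of II and 31 and 68 bp at that of III, all less than the 1 kb smoothing window, and the replicates of a genotype differed by 95 to 233 bp. Replicate 2 of pfs2-11 split the left end of I into 4 peaks and that of II into 3, where the other lists had 1 peak each. At the right end of II, which holds tlh2, peaks covered 42.5 kb in pfs2-11 replicate 1, and 42.5 and 41.6 kb in the wild types, with a fold of 30.6 in pfs2-11 replicate 1 and 24.7 and 18.2 in the wild types. At the right end of I the peaks lay over different genes in each list: the amidase gene SPAC869.01 in pfs2-11 replicate 1, SPAC186.02c (a hydroxyacid dehydrogenase) in wild-type replicate 1, and SPAC186.07c and SPAC186.08c (a hydroxyacid and an L-lactate dehydrogenase) in wild-type replicate 2. These covered 0.928 kb in pfs2-11 replicate 1 and 1.51 and 1.93 kb in the wild types, with folds up to 3.47. Over the 75 lists of the series peaks began at the first base of a chromosome in 172 cases, while none ended at a last base, so whether a peak that runs to a right end would be listed is unknown.

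Subtelomeric peaks as a whole covered 98.7 and 52.7 kb in pfs2-11 and 97.7 and 95.2 kb in the wild type (difference -20.7 kb, p = 1.00, exact permutation test). Without the positions right of the centromeres of I and II they covered 55.3 and 52.7 kb in pfs2-11 and 53.7 and 51.6 kb in the wild type, a difference of 1.35 kb. The mean fold of all subtelomeric peaks, right ends included, was 13.4 and 8.48 in pfs2-11 and 8.54 and 8.46 in the wild type (log2 difference 0.328, p = 0.667, exact permutation test). Without the positions right of the centromeres of I and II the log2 of this mean was 4.25 and 3.08 in pfs2-11. In the wild type it was then 3.43 and 3.76, a difference of 0.0726 between the groups.

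Genes of the pathway under test were also looked up in the lists. Of 5113 protein-coding genes 1.06% and 0.548% overlapped a peak in pfs2-11 and 0.841% and 0.763% in the wild type, so a short list of genes would be near 0 in any case, and nothing particular is read from its count. None of 16 CPA genes, pfs2 itself, ysh1 (the nuclease) and pla1 (the poly(A) polymerase) among them, had a peak in any of the 4 lists. The same held for 8 termination and RNA surveillance genes such as seb1, dhp1 and mmi1, for 13 silencing factors such as clr4, swi6 and epe1, and for 8 euchromatic control genes such as act1 and adh1. None of 10 meiotic genes subject to RNA elimination had a peak in any list either, while in the vector isolates without epe1 at 30 °C mei4, ssm4, num1 and mcp7 each had one in 15 of 15 isolates and the other 6 in 0 of 15. Some of the genes looked up, ssm4, rec10, rec8, spo5 and crs1 among them, lie right of the centromere flanks of I and II. Since pfs2-11 replicate 2 lists nothing there, that list could show no peak at them. The peak lists hold no value that checks the pfs2-11 allele itself.

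Short sequence motifs linked to 3′-end processing were counted in the blocks on both strands. The canonical poly(A) signal AATAAA occurred 4.02 times per kb in the arms as all 4 lists share them, 3.65 times at the left ends of I and II, 4.89 times at the right end of II, 3.06 times in the mating-type blocks and 2.74 times in the short blocks of the centromere flanks and euchromatin, against 2.79 per kb in the whole genome. TGTA occurred 11.5 times per kb in the arms, 11.4 times at the left ends of I and II and at the right end of II, 10.7 times in the mating-type blocks and 11.1 times in the same short blocks, against 9.40 times in the genome. The GC content was 33.2% in the arms and 36.1% in the genome, and both motifs are rich in A and T. These counts describe the sequence and say nothing of which sites are used.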

How the data were processed

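The study measured H3K9me2 by chromatin immunoprecipitation and sequencing. Per the labels and methods, the authors removed reads under 20 nt, aligned the rest to ASM294v2 with Bowtie, placing reads with several matches at 1 random location, and smoothed over 1 kb. SAMtools and bedtools are named in the submitters' processing notes. The peak caller is not given in the sources used here. The signal values in each deposited list are read coverage averaged over each peak and its chromosome, per library, unscaled and without input correction.

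Python 3.11.15 and NumPy 2.4.6 were used. Starts were counted from 1. Peaks under 1 kb apart were merged into blocks, and blocks that overlap between lists were joined. Centromere and mating-type windows were drawn with the lists known. Gene names and sequences came from ASM294v3, in which 15 of 17 unrounded curated regions had an edge at an annotated gene edge. Recurrence was counted in 50-base stretches on both strands.

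Groups came from the labels. Group means were compared by two-sided exact permutation tests, tested on simulated data. Every peak was accounted for, and genes were named where a peak overlapped them, where they lay nearest, or from the fixed lists. Members and lists were chosen with earlier results of these data known. The labels pair each replicate's samples with 1 input, and in 311 bins of 1 kb the replicates of both genotypes deviated from their means with a correlation of 0.136. The pair of inputs held 8 and 14 peaks. Polymerase II samples were not analysed here.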

Additional observations from a re-analysis of the deposited data

How the results depend on the processing

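With 2 samples a group no test could pass 0.05, so only directions were compared. Of 91 values under other settings, 82 kept their direction (or, for counts of bins, stayed within 1.5 times). The 82 include settings that cannot change a difference, so they overstate how far it was tried. These are the replicate block, and the centromere fold and length without positions right of the centromeres of I and II. Set as replicate block, the paired fit left every difference as it was (centromere fold 1.14 on the log2 scale, p = 0.500, exact, the smallest it allows) and changed no call. Subtelomeric length turned from -20.7 kb to 6.18 kb without peaks that overlap an input peak and to 1.35 kb without positions right of the centromeres of I and II, and the subtelomere fold turned to -0.114 (log2) with a fold of at least 4.5. Differences without replicate 1 or without replicate 2 ran from -42.4 to 0.955 kb for subtelomeric length, from -7.61 to 6.74 kb for the mating-type region, from -2 to 13 peaks per list, from 0.899 to 1.39 (log2) for the centromere fold, from 0.872 to 6.71 kb for centromere length and from 0.438 to 0.996 (log2) for the ratio of centromere to subtelomere coverage. The mating-type difference came to 0 without positions right of the centromeres, where no list holds it, and that in curated sites came to 0 with a fold of at least 4.5. The difference in centromere share fell to 5.56 points without input-overlapping peaks. That setting cut the lists unevenly. It left 105 and 27.2 kb of centromere peaks in pfs2-11 and 101 and 28.1 kb in the wild type. Of the subtelomeric peaks it left 57.4 and 30.5 kb in pfs2-11 and 56.5 and 19.0 kb in the wild type. Bins with a peak in pfs2-11 alone numbered 1 of 10 kb. With a fold of at least 4.5 they again numbered 6, of which 2 were the same bins. The causes were not tested. Taking the 6 arm peaks alone was chosen after seeing the data.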
